A study of Mus musculus with 6 samples.

Results

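The nuclear-encoded subunits of the respiratory chain were examined by complex in F4/80+ cells of CCl4-treated mouse livers. These are the protein-coding genes whose symbols mark them as subunits of complexes I to V, without assembly factors. The symbols matched 92 genes, of which 84 were protein-coding and 8 were pseudogenes. One symbol, Atp5o, was carried by 2 gene IDs, which left 83 members of 23394 genes. Complex I held 35 of them, complex II 4, complex III 9, complex IV 18 and complex V 17. Ndufa4 and its paralog Ndufa4l2 were counted in complex IV. Each gene was represented by 1 transcript, that of the highest mean value. For some members, among them Uqcr10, Uqcr11, Uqcrh, Cox6a1 and Atp5e, that transcript is not annotated as protein-coding.

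The 3 KO and 3 WT libraries came from male C57BL/6 mice of 3 months on normal chow, and both groups received CCl4, a hepatotoxin that causes liver fibrosis, into the peritoneum. The labels name neither the gene that the KO mice lack nor the cells in which it was deleted, so the targeted gene could not be checked, and mice without CCl4 were not analysed here. Cells were taken from digested liver with magnetic beads against F4/80, a surface protein of macrophages encoded by Adgre1, and poly(A) RNA was sequenced with a strand-specific kit. The labels do not say that each library is a separate animal, so p-values measure the spread between these libraries, which may be technical.

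The respiratory chain passes electrons from NADH (complex I) or succinate (complex II) through ubiquinone to complex III, cytochrome c and complex IV, where oxygen is reduced. Complexes I, III and IV pump protons across the inner mitochondrial membrane, and complex V, the ATP synthase, uses the gradient to make ATP. In macrophages the balance between oxidative phosphorylation and glycolysis is known to shift with activation, and electron transport is also a source of reactive oxygen species.

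Depth was 10790842, 12818227 and 19163317 reads in KO replicates 1, 2 and 3, against 15027644, 16600429 and 22157238 reads in WT replicates 1, 2 and 3, counted over 1 transcript per gene. The macrophage markers were abundant: Adgre1 had 4441 to 6673 normalised counts in KO and 4463 to 7644 in WT. RNA of other liver cells was present and differed between the groups. Over all 15619 genes tested, 54.2% had a log2 change above 0. By limma 2.44% of them passed in either direction and 2.09% higher in KO, and by edgeR 1.81% passed in either direction. All 20 hepatocyte markers had a log2 change above 0 and 8 passed the test, with summed normalised counts of 139116 to 256121 in KO and 37277 to 114635 in WT. All 15 endothelial markers were above 0 and 5 passed, all 9 tested cholangiocyte markers were above 0 and 1 passed, and of 14 markers of stellate cells and myofibroblasts 12 were above 0 and 1 passed. By edgeR 8 hepatocyte markers and 1 endothelial marker passed, and no cholangiocyte, stellate cell or myofibroblast marker did. The 7 tested erythroid markers were all above 0 and none passed, with sums of 30742 to 268709 in KO and 2221 to 33368 in WT. Of 14 macrophage markers 4 were above 0 and none passed, while 2 of 12 neutrophil and 8 of 12 lymphocyte markers were above 0 and none passed. Csf1r, a receptor of macrophages, averaged 16689 ± 1352 in KO and 32119 ± 7500 in WT, and Ptprc, the leukocyte antigen CD45, 12406 ± 3275 in KO and 24612 ± 6145 in WT (SD, n = 3 each); limma gave adjusted p-values of 0.127 and 0.116. Clec4f, a lectin of Kupffer cells, went the other way, with 4727, 9342 and 7476 in KO and 3155, 3274 and 3142 in WT, all KO libraries above all WT libraries (log2 change 1.12, SE 0.25, limma adjusted p = 0.0537). Marco, of the same list, had 6628, 6660 and 5467 in KO and 21405, 39406 and 8525 in WT. All its KO libraries lay below all WT libraries (log2 change -1.63, SE 0.47, limma adjusted p = 0.102). No marker of these lists was at 0 in all libraries. The part of these cells in the results on the respiratory chain was not tested. In this bulk RNA, fewer cells of a type and less RNA per cell cannot be told apart.

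The 83 members together held 102732, 78095 and 82571 normalised counts in KO replicates 1, 2 and 3, against 76032, 76253 and 67869 in WT replicates 1, 2 and 3. A normalised count is the number of reads after division by the authors' scaling factor of that library. All 3 KO sums lay above all 3 WT sums, but KO replicates 2 and 3 lay nearer to WT replicates 1 and 2 than to KO replicate 1. Of the nuclear-encoded signal, the members made up 0.764%, 0.610% and 0.637% in the KO libraries and 0.589%, 0.603% and 0.582% in the WT libraries.

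Of the 83 members 78 passed the filter on low counts and were tested, and 70 of these (89.7%) had a log2 change (KO minus WT, on log2 of the normalised count plus 1) above 0, against 54.2% of the 15619 genes tested. Their median log2 change was 0.25, against 0.05 over all genes tested and 0.02 over the 3997 genes whose mean level lay between the quartiles of the tested members. With the libraries scaled by total reads the count above 0 was 59 of 78 and the median of all genes was -0.04, and the members' median lay 0.21 above that of all genes, as in the main test. Only Ndufa4l2 passed the test at an adjusted p under 0.05 with limma over all genes, which is 1.28% of the members tested, against 2.44% of all genes tested in either direction and 2.09% higher in KO. By edgeR's quasi-likelihood test Ndufa4l2 was also the only call, against 1.81% of all genes in either direction and 1.41% higher. At an unadjusted p under 0.05 limma gave 11 members (14.1%), all with a log2 change above 0, against 18.0% of all genes tested in either direction and 12.1% higher in KO. In 22 members (28.2%) all KO libraries lay above all WT libraries, against 13.7% of all genes tested, and in 1 member, Atp5l, all KO libraries lay below all WT libraries, against 9.25%. In simulated libraries of this design 2% of genes with a log2 change of 0.5 and 6% of those with 1 passed. With a log2 change of 2 it was 74%, and with 3 it was 92%. The changed genes were 50 per size, drawn at random from genes of all levels, and a change of 0.25 was not simulated. These shares therefore do not measure how often a change in the members would be found.

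**Figure D1:**
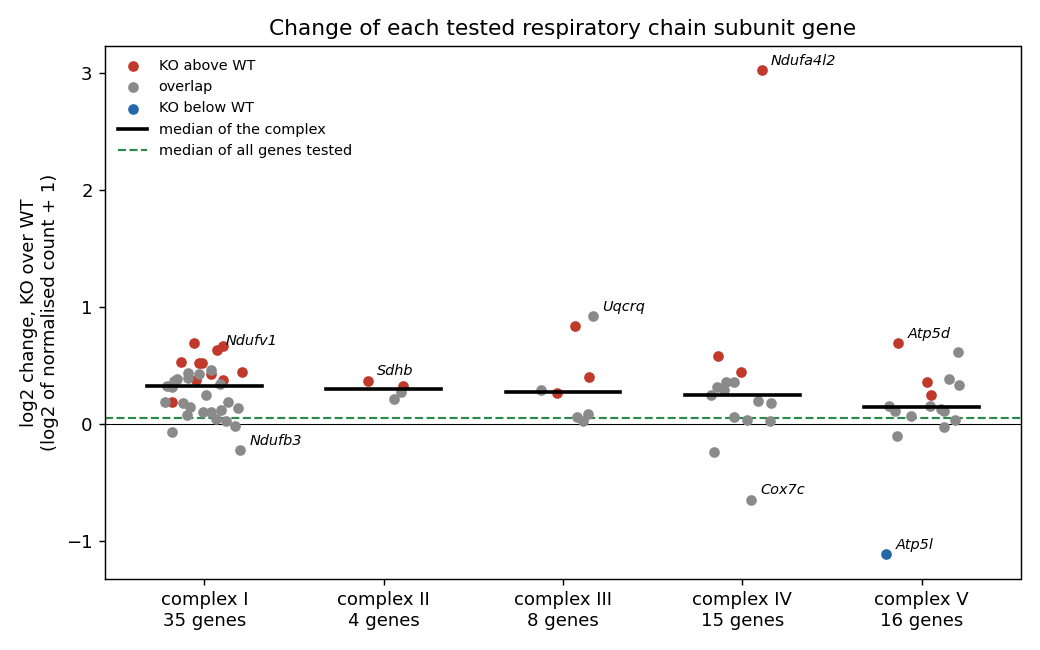
Log2 change (KO over WT, log2 of normalised count plus 1) of each of the 78 tested subunit genes by complex, with 1 point per gene, a bar at the median of each complex and a dashed line at the median of all genes tested. The medians lie between 0.32 in complex I and 0.14 in complex V, and Ndufa4l2 stands apart at 3.02.

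KO replicate 1 and WT replicate 3 stood apart for these genes. For each gene the log2 level was taken relative to its mean over the 6 libraries, and the median over the tested members was 0.37, -0.03 and 0.06 in KO replicates 1, 2 and 3, against -0.05, -0.03 and -0.26 in WT replicates 1, 2 and 3. The medians over all genes tested lay between -0.02 and 0.08. KO replicate 2 was thus close to WT replicates 1 and 2. KO replicate 1 was the highest library for 59 of the 78 members (75.6%), against 24.2% of all genes tested, and WT replicate 3 was the lowest for 43 (55.1%), against 19.7%. Without KO replicate 1 the median log2 change of the members was 0.15 and 56 of 79 were above 0, and without WT replicate 3 it was 0.16 and 59 of 78 were above 0. Without WT replicate 1 it was 0.27 and 72 of 79 were above 0. The members with an unadjusted limma p under 0.05 numbered 11 with all libraries. They numbered 3 without KO replicate 1, 5 without WT replicate 1 and 9 to 12 without any other library. KO replicate 1 was the shallowest library and WT replicate 3 the deepest. KO replicate 1 also had the highest sum of cytosolic ribosomal protein genes, 266230 normalised counts, against 158219 to 191926 in the other libraries, and the highest erythroid sum. WT replicate 3 had the lowest share of reads on mitochondrially encoded genes, 6.19%, against 16.2% to 27.5% in the others. The part of depth and of these RNA classes in the result was not tested.

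**Figure D2:**
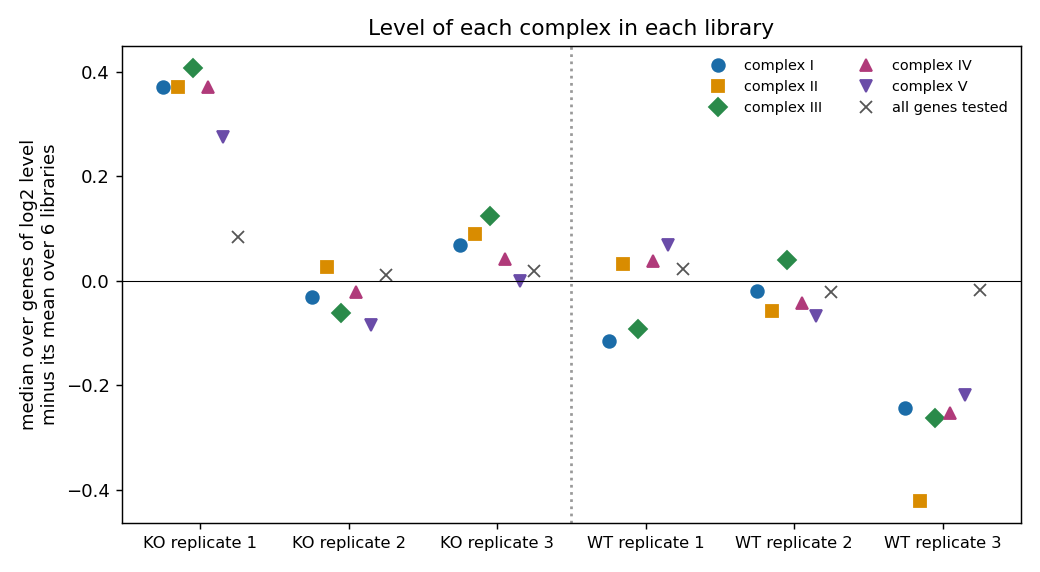
Median over the tested genes of each complex of the log2 level relative to the gene's mean over the 6 libraries, for each KO and WT library, with crosses for all genes tested. All 5 complexes are highest in KO replicate 1 and lowest in WT replicate 3, while the other 4 libraries lie between, with complex III in KO replicate 3 (0.125) and complex I in WT replicate 1 (-0.115) farthest from 0.

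The makeup of the chain by complex was close to equal in the groups. The median log2 change was 0.32 in complex I, 0.30 in complex II, 0.27 in complex III, 0.24 in complex IV and 0.14 in complex V. Complex I made up 29.5% ± 0.0851 of the members' normalised counts per kilobase of transcript in KO and 29.0% ± 0.892 in WT (SD, n = 3 each). Complex V made up 28.7% ± 0.0446 in KO and 29.3% ± 1.06 in WT, and complex IV 26.3% ± 0.362 in KO and 26.1% ± 0.757 in WT. Complex III held 10.8% ± 0.337 in KO and 10.97% ± 0.374 in WT, and complex II held 4.77% ± 0.0133 in KO and 4.66% ± 0.325 in WT. In each complex the difference between the group means was smaller than the SD of the WT libraries. Differences between complexes were not tested.

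Complex I takes electrons from NADH through a chain of iron-sulphur clusters, and some of its core subunits are encoded in mitochondrial DNA. Of its 35 members 32 had a log2 change above 0 and none passed the test. In 11 (31.4%) all KO libraries lay above all WT libraries, against 13.7% of all genes tested. Ndufv1, the subunit that binds FMN and NADH, had 1563, 1271 and 1292 normalised counts in KO and 831, 1019.6 and 819 in WT. Each KO library lay above each WT library, and the log2 change was 0.63 (SE 0.18, limma adjusted p = 0.0973). Ndufv1 was called by DESeq2 with an adjusted p of 0.0421, and its adjusted p by edgeR was 0.114.

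Ndufs7, an iron-sulphur subunit next to the ubiquinone site, had 903, 696 and 709 normalised counts in KO and 308, 616 and 554 in WT. The groups did not overlap, and WT replicate 1 was the lowest (log2 change 0.69, SE 0.27, limma adjusted p = 0.217). Ndufs3, another core subunit of that module, averaged 265 ± 37.4 in KO and 190.1 ± 56.1 in WT (SD, n = 3 each), with no overlap and a log2 change of 0.52. Both changes were smaller without WT replicate 1, at 0.39 for Ndufs7 and 0.25 for Ndufs3. Ndufv2, Ndufs1 and Ndufs8 overlapped between the groups. Ndufv2, which carries an iron-sulphur cluster near the NADH site, had a log2 change of 0.14. Ndufs1, the largest iron-sulphur subunit, had one of -0.02, and Ndufs8, which carries clusters near ubiquinone, one of -0.07. These 3 changes were smaller than their SE of 0.17 to 0.22. Over the 28 accessory subunits the median was 0.33, with 27 above 0.

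NRF1, YY1 and GABP, a factor of the ETS family, are known to act on promoters of respiratory chain genes, and their motifs were searched in the promoters. That of Ndufs7 is shown because it holds a YY1 match. It is the RefSeq window of 250 bases before to 50 after the start of the gene (GRCm38.p6, chr10:80249199-80249498, plus strand), 5′ to 3′, with the match in capitals.
Ndufs7: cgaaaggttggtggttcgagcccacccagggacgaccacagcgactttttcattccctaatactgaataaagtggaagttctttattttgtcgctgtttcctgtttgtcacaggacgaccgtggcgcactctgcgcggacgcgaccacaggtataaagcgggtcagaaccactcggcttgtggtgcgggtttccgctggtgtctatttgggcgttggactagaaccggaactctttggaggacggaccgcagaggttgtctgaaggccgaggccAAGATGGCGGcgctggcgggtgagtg

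Among the accessory subunits of complex I, Ndufb2 of the membrane arm had 386, 349 and 272 normalised counts in KO and 182, 207 and 244 in WT. No WT library reached a KO library (log2 change 0.66, SE 0.23, limma adjusted p = 0.171). Ndufv3, which sits beside the NADH module, had 918, 673 and 686 in KO and 489, 646 and 451 in WT. Here WT replicate 2 came close to the KO libraries (log2 change 0.52, SE 0.21, limma adjusted p = 0.236). Ndufb3, of the membrane arm, was the accessory subunit with a change below 0 and averaged 309 ± 41.6 in KO and 365 ± 73.2 in WT (SD, n = 3 each; log2 change -0.23, SE 0.23). Its groups overlapped. Per kilobase of transcript Ndufa6 was the most abundant complex I subunit in the mean of the 6 libraries, with 1599 normalised counts per kilobase in KO and 1215 in WT, where Ndufb8, of the membrane arm, had 1248.

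**Figure D3:**
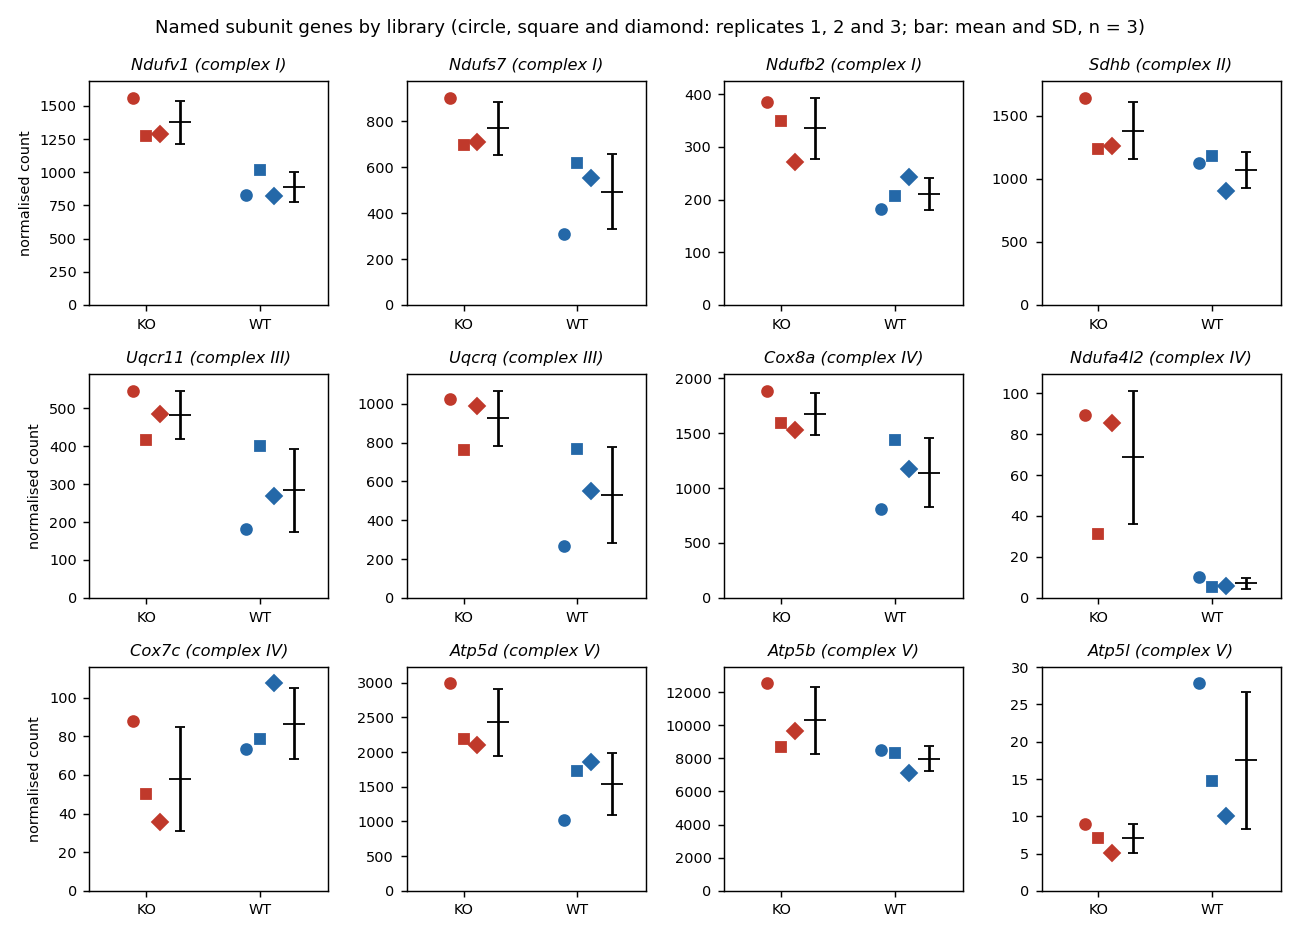
Normalised counts of 12 named subunit genes in each of the 3 KO and 3 WT libraries, with 1 point per library and a bar at the mean and SD (n = 3). Ndufa4l2 lies at 31.0 to 89.4 in KO and at 5.25 to 10.3 in WT, and Atp5l and Cox7c are the 2 genes shown whose mean was lower in KO.

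Complex II oxidises succinate and also belongs to the tricarboxylic acid cycle, and all of its subunits are nuclear. Its 4 members had log2 changes of 0.21 to 0.37, and none passed the test. Sdhb, the iron-sulphur subunit, had 1645, 1240.3 and 1264 normalised counts in KO and 1125, 1181 and 905 in WT. Sdhc, a membrane anchor, had 1375, 1175 and 1216 in KO and 1140.5, 1098 and 797 in WT. In both genes the groups did not overlap, by a narrow margin between KO replicate 2 and the WT libraries (Sdhb log2 change 0.37, SE 0.19, limma adjusted p = 0.359). Without KO replicate 1 the change of Sdhb was 0.24. Sdha, the flavoprotein that binds succinate, averaged 3269 ± 197 in KO and 2825 ± 253 in WT, and the second anchor Sdhd averaged 1477 ± 366 in KO and 1215 ± 222 in WT (SD, n = 3 each). Both overlapped between the groups. All 4 genes were highest in KO replicate 1 and lowest in WT replicate 3.

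The promoters of the catalytic pair are shown for contrast, from RefSeq (GRCm38.p6): Sdha lies at chr13:74350191-74350490 on the minus strand and Sdhb at chr4:140961021-140961320 on the plus strand. Capitals mark 3 matches to the NRF1 motif in Sdha and 1 match to the ETS motif in Sdhb.
Sdha: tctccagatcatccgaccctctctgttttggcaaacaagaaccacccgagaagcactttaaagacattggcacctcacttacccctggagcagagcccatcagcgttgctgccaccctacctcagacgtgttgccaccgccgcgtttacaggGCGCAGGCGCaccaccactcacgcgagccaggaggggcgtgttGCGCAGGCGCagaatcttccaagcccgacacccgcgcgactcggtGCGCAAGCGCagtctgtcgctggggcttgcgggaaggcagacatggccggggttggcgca
Sdhb: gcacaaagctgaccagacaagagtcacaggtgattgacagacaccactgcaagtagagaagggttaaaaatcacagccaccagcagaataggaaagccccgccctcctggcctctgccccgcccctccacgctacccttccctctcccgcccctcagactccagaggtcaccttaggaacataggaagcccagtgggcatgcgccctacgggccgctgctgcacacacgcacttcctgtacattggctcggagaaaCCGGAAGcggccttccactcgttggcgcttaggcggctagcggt

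Complex III passes electrons from ubiquinol to cytochrome c. All 8 tested members had a log2 change above 0 and none passed the test. In 3 (37.5%) all KO libraries lay above all WT libraries, against 13.7% of all genes tested. The largest changes were in small accessory subunits. Uqcrq, which lies near the ubiquinone site, had 1024, 760.2 and 990.3 normalised counts in KO and 269.9, 765 and 553 in WT. KO replicate 2 and WT replicate 2 were level, so the groups overlapped (log2 change 0.92, SE 0.34, limma adjusted p = 0.196). Uqcr11, another small subunit, had 545, 417 and 485 in KO and 182, 400.1 and 267 in WT. The groups did not overlap, with KO replicate 2 just above WT replicate 2 (log2 change 0.83, SE 0.29, limma adjusted p = 0.166). Without WT replicate 1, the lowest library for both genes, the changes were 0.49 for Uqcrq and 0.55 for Uqcr11. Uqcr10, also small, did not overlap either (log2 change 0.40, SE 0.20).

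The catalytic subunits of complex III had smaller changes than Uqcrq, Uqcr11 and Uqcr10, but larger ones than the accessory subunit Uqcrh. Uqcrfs1, the Rieske iron-sulphur protein, had a log2 change of 0.26 with no overlap, and Cyc1, cytochrome c1, had one of 0.29 with overlap. Uqcrh, the hinge protein that binds cytochrome c1, was the most abundant complex III subunit per kilobase, with 2703 normalised counts per kilobase in KO and 2671 in WT. Its log2 change was 0.02, and the sign turned under 5 other scalings or tests of all 6 libraries, between -0.03 and -0.06. Uqcrc1, a core subunit of complex III, was listed at 0 in all 3 KO libraries and in 2 WT libraries, with 1 read in WT replicate 2. The transcript kept shared no 50-base window with transcripts of other genes, and the reason for its values of 0 was not found. The other core subunit, Uqcrc2, averaged 1767 ± 276 in KO and 1670.1 ± 224 in WT (SD, n = 3 each).

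The promoter of Uqcr11 is shown because this gene had the smallest p in complex III and holds an ETS match, in capitals (RefSeq, GRCm38.p6, chr10:80406772-80407071, minus strand).
Uqcr11: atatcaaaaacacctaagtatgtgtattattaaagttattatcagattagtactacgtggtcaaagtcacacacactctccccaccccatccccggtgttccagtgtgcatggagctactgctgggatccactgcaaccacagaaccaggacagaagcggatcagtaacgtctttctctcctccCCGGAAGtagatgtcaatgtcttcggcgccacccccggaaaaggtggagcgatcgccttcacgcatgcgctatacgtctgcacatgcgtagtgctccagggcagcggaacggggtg

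Complex IV, cytochrome c oxidase, reduces oxygen, and its nuclear subunits surround a catalytic core encoded in mitochondrial DNA. Ndufa4l2 was the single member of the whole chain that passed the test, with a higher level in KO. It encodes a paralog of NDUFA4 that is induced in hypoxia by HIF-1, and it is known as a marker of pericytes in the mouse brain. It had 89.4, 31.0 and 85.4 normalised counts in KO and 10.3, 5.25 and 5.62 in WT. These were 60, 26 and 101 reads in KO and 10, 5 and 10 in WT. The gene thus passed the filter on low counts through its KO libraries, the group where it was high. Every KO library lay above every WT library, and KO replicate 2 was the lowest of the KO libraries. The log2 change was 3.02 (SE 0.63, limma adjusted p = 0.0455, edgeR adjusted p = 0.0432). The call was lost with limma-voom (adjusted p = 0.0746), without a filter on low counts (0.0734), with the sum of all transcripts (0.0712) and with any single library left out (0.0579 to 0.201), while the log2 change stayed at 2.76 to 3.51 with a library left out. The gene lies at chr10:127514967-127517154 on the plus strand (GRCm38).

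Ndufa4l2 was low, with 73.4 normalised counts per kilobase in KO and 7.55 in WT, against 2559 in KO and 2069 in WT for Ndufa4. Hif1a, which encodes the HIF-1 alpha subunit, had group levels that differed by less than the SE (log2 change -0.02, SE 0.20), and its protein was not measured. The summed markers of stellate cells and myofibroblasts were 32891 to 59020 normalised counts in KO and 20286 to 29123 in WT. Among them Col1a1, a collagen chain, had 4949, 5103 and 8687 normalised counts in KO and 2405, 2543 and 2844 in WT, all KO above all WT (log2 change 1.22, SE 0.24). It passed by limma (adjusted p = 0.0401) and not by edgeR (adjusted p = 0.0549). The part of stellate cells and myofibroblasts in the level of Ndufa4l2 was not tested.

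Of the 15 tested complex IV members 13 had a log2 change above 0. In 3 (20.0%) all KO libraries lay above all WT libraries, against 13.7% of all genes tested. Cox8a, the ubiquitous form of a small structural subunit, had 1888, 1597 and 1526 normalised counts in KO and 814, 1439 and 1171 in WT. WT replicate 2 lay just below the lowest KO library (log2 change 0.58, SE 0.23, limma adjusted p = 0.213), and without WT replicate 1 the change was 0.36. Cox6a1, the ubiquitous form of subunit VIa, had 1917, 1679 and 1816 in KO and 1109, 1615 and 1295 in WT, again with no overlap (log2 change 0.44, SE 0.19, limma adjusted p = 0.248). Cox4i1, the ubiquitous form of a regulatory subunit and the most abundant complex IV subunit per kilobase, had a log2 change of 0.24 with overlap. Ndufa4, Cox7a2, Cox6b1, Cox7b and Cox7a2l also overlapped, with log2 changes of 0.31, 0.28, 0.19, 0.06 and 0.03. The sign of Cox7a2l, a supercomplex factor, turned under TMM and total-read scaling, and that of Cox7b under total-read scaling. Cox7c was the tested complex IV gene with the lowest change and had 87.9, 50.04 and 35.5 in KO and 73.1, 78.8 and 107 in WT. KO replicate 1 lay among the WT libraries (log2 change -0.65, SE 0.42, limma adjusted p = 0.470), and leaving out 1 library gave -0.997 to -0.36.

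The forms of complex IV subunits that are typical of muscle, lung or testis were at low levels in both groups. Cox6a2, the muscle form of subunit VIa, averaged 42.9 ± 31.3 normalised counts in KO and 44.0 ± 22.7 in WT, and Cox6b2, the testis form of subunit VIb, averaged 26.8 ± 11.7 in KO and 23.2 ± 17.3 in WT (SD, n = 3 each). A further 3 members were below the filter and not tested. The lung form Cox4i2 had 2 reads in KO and 2 in WT, and the muscle form Cox8b had 5 reads in KO and 0 in WT. The muscle form Cox7a1 had 30 reads in KO and 78 in WT, and its normalised counts were 19.4, 7.15 and 9.30 in KO and 3.09, 4.20 and 39.9 in WT. Its high value was in WT replicate 3.

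The promoter of Cox8a is shown because it holds 2 ETS matches near its start, both on the opposite strand and in capitals (RefSeq, GRCm38.p6, chr19:7217567-7217866, minus strand).
Cox8a: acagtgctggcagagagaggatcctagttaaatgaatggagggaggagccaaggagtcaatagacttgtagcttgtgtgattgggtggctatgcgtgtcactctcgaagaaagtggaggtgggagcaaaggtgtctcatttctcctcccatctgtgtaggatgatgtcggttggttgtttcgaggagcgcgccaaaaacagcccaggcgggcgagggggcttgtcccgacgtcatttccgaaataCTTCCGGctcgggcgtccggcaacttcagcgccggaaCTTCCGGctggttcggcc

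Complex V consists of the catalytic F1 head and the membrane part Fo with its stalks. Of its 16 tested members 13 had a log2 change above 0 and none passed the test. The 5 genes of the F1 head were all above 0 with a median of 0.35, and 8 of the 11 tested genes outside it were above 0 with a median of 0.11. Atp5d, the delta subunit of the central stalk, had 2989, 2189 and 2102 normalised counts in KO and 1026, 1724 and 1858 in WT. The groups did not overlap (log2 change 0.69, SE 0.25, limma adjusted p = 0.191), and without WT replicate 1 the change was 0.42. Atp5b, the catalytic beta subunit and the most abundant member per kilobase, had 12522, 8672 and 9674 in KO and 8509, 8332 and 7096 in WT. KO replicate 2 lay just above WT replicate 1 (log2 change 0.35, SE 0.22, limma adjusted p = 0.461), and without KO replicate 1 the change was 0.20. Atp5a1, the alpha subunit that forms the hexamer with beta, overlapped between the groups (log2 change 0.12, SE 0.20). Atp5e, the epsilon subunit, overlapped too, with a log2 change of 0.38.

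Subunit c forms the rotating ring of Fo, and 3 genes encode the same mature protein. Atp5g3 was the main form, with 2171, 1775 and 1987 normalised counts in KO and 1669, 1664 and 1644 in WT. Its groups did not overlap (log2 change 0.25, SE 0.16, limma adjusted p = 0.473). Atp5g1 averaged 128 ± 21.1 in KO and 85.1 ± 26.6 in WT (SD, n = 3 each), with overlap, and Atp5g2 was not tested, with 9 reads in KO and 47 in WT. Per kilobase Atp5g3 had 2735 normalised counts in KO and 2294 in WT, Atp5g1 27.2 in KO and 18.1 in WT, and Atp5g2 5.27 in KO and 19.3 in WT. Atp5j, the stalk subunit F6, had a log2 change of 0.33 with overlap. Atp5l, subunit g of Fo, was the member whose KO libraries all lay below the WT libraries. It had 8.94, 7.15 and 5.07 in KO and 27.8, 14.7 and 10.1 in WT (log2 change -1.12, SE 0.73, limma adjusted p = 0.482), and without WT replicate 1 the change was -0.74.

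The promoter of Atp5j is shown because it holds 1 YY1 and 1 ETS match, in capitals, and because its gene overlaps Gabpa, which encodes a subunit of an ETS factor, on the opposite strand along 19.1% of its exon bases (RefSeq, GRCm38.p6, chr16:84834927-84835226, minus strand).
Atp5j: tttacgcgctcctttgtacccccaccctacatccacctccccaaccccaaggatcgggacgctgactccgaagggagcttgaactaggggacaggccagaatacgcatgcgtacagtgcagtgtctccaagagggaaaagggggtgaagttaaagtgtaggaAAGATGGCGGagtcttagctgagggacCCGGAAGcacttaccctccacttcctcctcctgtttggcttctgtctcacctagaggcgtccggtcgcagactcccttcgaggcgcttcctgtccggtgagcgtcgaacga

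Promoter windows were found in RefSeq for 67 of the 83 members and searched on both strands. The NRF1 motif (GCGC, A, any base, GCGC) was in 17 of them (25.4%), against 5.19% of all 27025 promoters of this length and 10.5% of the 10949 promoters of tested genes. The ETS motif CCGGAAG was in 16 (23.9%), against 9.93% of all promoters and 18.7% of those of tested genes. The YY1 motif (AAGAT followed by GGCGG) was in 5 (7.46%), against 0.995% of all promoters and 2.20% of those of tested genes. At least 1 of these motifs was in 32 members (47.8%), against 28.2% of the promoters of tested genes. A match is a description and not a site. The median log2 change was 0.21 over the tested members with an NRF1 match and 0.31 without, 0.34 with an ETS match and 0.25 without, and 0.24 with a YY1 match and 0.28 without.

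Several subunit genes have processed copies or neighbours that share their sequence, and the sources used here do not say how reads with several matches were counted. The share of 50-base windows of a member's transcript that also occur, on either strand, in transcripts of other genes was under 10% in 57 members and 10% or more in 26. The 53 tested members under 10% had a median log2 change of 0.28, with 47 above 0, and held all 11 with an unadjusted limma p under 0.05. The 25 tested members at or over 10% had a median of 0.18, with 23 above 0. Of Atp5l, which makes a subunit present in all mitochondria, 84.8% of windows were shared with other genes, and its level per kilobase was 13.0 normalised counts in KO and 32.2 in WT. Cox7c shared 27.9%, Atp5g2 46.4% and Ndufs3 39.7%. The values of these genes are uncertain to that extent. Uqcrc1, Cox4i2 and Cox8b shared none. The shared windows include overlaps with genes on the opposite strand, with which reads could be split, since the strand setting of the counting is unknown. On that strand exon bases overlapped in Cox4i1 with Emc8 (20.1%) and in Uqcrc2 with Pdzd9 (26.6%).

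**Figure D4:**
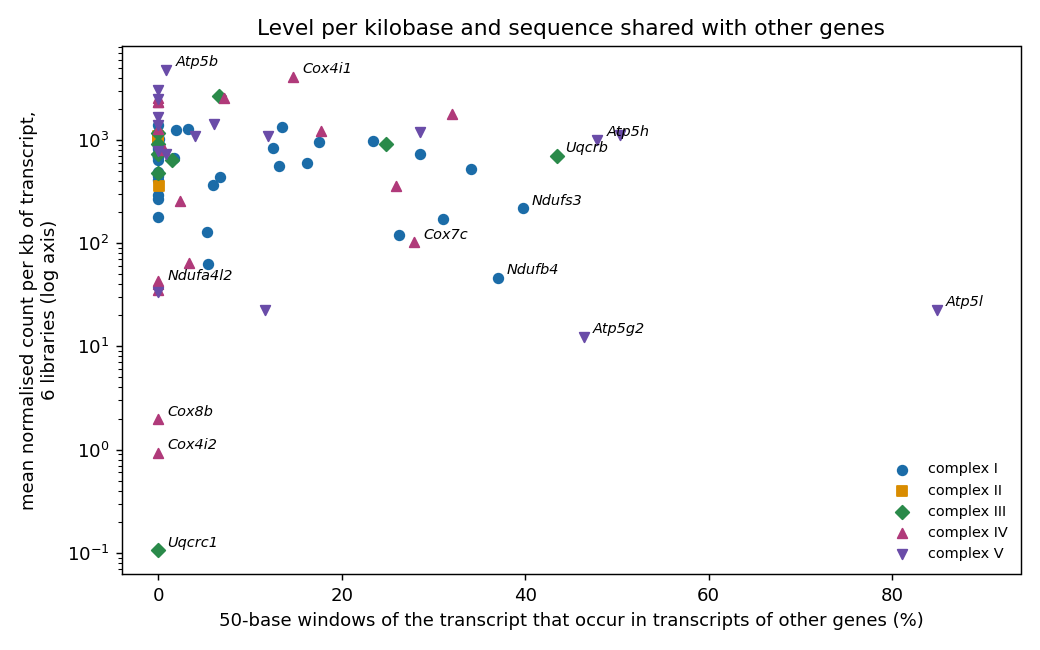
Mean normalised count per kilobase of transcript over the 6 libraries (log axis) against the share of 50-base windows that occur, on either strand, in transcripts of other genes, with 1 point per subunit gene. Atp5l combines a share of 84.8% with a low level, whereas Uqcrc1, Cox4i2 and Cox8b are at the lowest levels with no shared window.

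Genes that build, feed or regulate the chain were compared as lists. Over all genes tested, 54.2% had a log2 change above 0 and 2.44% passed by limma. Of 17 assembly factors of complex I 13 had a log2 change above 0 and none passed the test (median 0.16). Ecsit, an assembly factor that also acts in immune signalling, averaged 301 ± 48.6 normalised counts in KO and 174 ± 24.3 in WT, with no overlap (log2 change 0.78, SE 0.24, limma adjusted p = 0.117). Ndufaf7, a methyltransferase, averaged 249 ± 42.6 in KO and 425 ± 121 in WT (SD, n = 3 each), and all KO libraries lay below all WT libraries (log2 change -0.75, SE 0.25, limma adjusted p = 0.157). Assembly factors thus lay on both sides. Of 10 assembly factors of complexes II and III 7 were above 0 (median 0.32), and all 3 of complex V were (median 0.30); none passed. Of 21 assembly factors of complex IV 16 were above 0 and none passed (median 0.15). Sco2, a copper chaperone for complex IV, had 431, 386 and 406 in KO and 134, 244 and 198 in WT, with no overlap (log2 change 1.12, SE 0.26, limma adjusted p = 0.0554).

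Of 12 electron carriers and supercomplex factors 10 were above 0 and none passed (median 0.34). Of 16 genes of the tricarboxylic acid cycle, which supplies NADH and succinate, 11 were above 0 and none passed (median 0.07). Suclg2, the GDP-forming subunit of succinyl-CoA ligase, had 605, 511 and 519 normalised counts in KO and 397, 264 and 249 in WT, with no overlap (log2 change 0.87, SE 0.23, limma adjusted p = 0.0822). Of 14 tested regulators of mitochondrial biogenesis 8 were above 0 and none passed (median 0.04). Gabpb2, a partner of Gabpa, overlapped between the groups (log2 change -0.59, SE 0.22, limma adjusted p = 0.200). Mitochondrial ribosomal protein genes, which serve translation of the subunits encoded in mitochondrial DNA, had 64 of 75 above 0 and none passed (median 0.19). Of 83 tested cytosolic ribosomal protein genes 52 were above 0 and 1 passed with a lower level in KO, Rpl3l, the muscle paralog of Rpl3 (median 0.05).

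Of the 8 tested mitochondrially encoded subunits 6 had a log2 change above 0 and none passed the test (median 0.32). The sum of the 11 matched genes was 2545590, 2417830 and 3160514 normalised counts in KO and 2499602, 4664102 and 744538 in WT. The WT libraries spanned the whole range of the KO libraries, with WT replicate 2 the highest and WT replicate 3 the lowest, so no difference could be seen against that spread. Among genes that modify respiration in activated macrophages, Acod1, which makes the complex II inhibitor itaconate, had 907, 646 and 604 in KO and 1437, 1467 and 458 in WT. The groups overlapped through WT replicate 3 (log2 change -0.48, SE 0.41, limma adjusted p = 0.603). Ucp2, an inner membrane carrier, had a log2 change of 0.21 (SE 0.23), and AA467197, which encodes a relative of Ndufa4 found in inflamed cells, had one of 0.24 (SE 0.46). Both overlapped. Nos2, which makes the complex IV inhibitor nitric oxide, was below the filter and not tested. It had 8.94, 22.6 and 23.7 normalised counts in KO and 6.18, 4.20 and 3.93 in WT, all KO libraries above all WT libraries. These were 6, 19 and 28 reads in KO and 6, 4 and 7 in WT. KO replicate 1 thus lay above WT replicates 1 and 3 only after scaling.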

How the data were processed

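RNA of F4/80+ liver cells was measured in 3 KO and 3 WT libraries, grouped by the labels. Each deposited table gives a signal for every Ensembl transcript, called normalised counts in the file header. Per the file headers, the authors scaled this signal, and the values show how: in all libraries 100% of them were multiples of what 1 read is worth, within a tolerance of 0.001. Whole reads were recovered from these steps. Without giving roles or order, the submitters' processing notes name the build GRCm38.p4 and the tools DESeq 1.8.3, HTSeq 0.5.3, SAMtools, STAR 2.4.0k and bcl2fastq 2.17. For the annotation release, the strand setting and the handling of reads with several matches, nothing was given in the sources used here.

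Transcripts were matched to GENCODE M21 (GRCm38), which covered 78332 of 79382 transcripts, and the other 1050 were not analysed here. For each of 23394 genes 1 transcript was kept, that of the highest mean value. The main test was limma 3.58.1 (trended prior, log2 of value + 1, genotype as the only term) over the 15619 genes that passed edgeR's filterByExpr on the recovered reads. Log2 changes are KO minus WT on this scale, and those of low genes are understated. Two-sided p-values were adjusted over all genes tested (Benjamini-Hochberg), with calls at an adjusted p under 0.05. Alternatives were edgeR 4.0.16 (quasi-likelihood, 282 genes called), DESeq2 1.42.0 and limma-voom on the recovered reads, TMM or total-read scaling, a pseudocount of 0.5 or 5, no filter or a CPM of at least 1 in 3 libraries, summed or protein-coding transcripts, a block for the replicate number, and each library left out in turn.

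The members and lists were chosen with earlier results of these data known, so no p was adjusted over a list and no list was tested as a set. Named members were, in each complex, the 4 of smallest p, the highest and lowest change and the highest level per kilobase, with the catalytic subunits and tissue paralogs; of each list, up to 3 genes of smallest p were eligible. The values of 1 member are not reported here. Uqcrc1, Uqcrc2, Ndufb8, Rpl3l and the genes with overlapping exons were named after their values were seen. The main test was tested on simulated data drawn from these libraries, over 15619 genes with 50 genes at each of 4 changes; 6 of 15419 unchanged genes were called. Same-numbered KO and WT libraries correlated at -0.01, 0.09 and -0.14 in their deviations from the group means, and differently numbered ones at -0.13 to 0.14. No pairing by replicate number was seen, but with 3 libraries per group this check cannot exclude it. Scripts used R 4.3.3 and Python 3.11.15.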

Additional observations from a re-analysis of the deposited data

How the results depend on the processing

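Over all genes tested, the main test called 381 genes, 326 higher and 55 lower. DESeq2 called 1409 genes (959 higher and 450 lower), edgeR 282, and the sum of transcripts gave 233; leaving out each library gave 8 (without KO replicate 3) to 809 (without KO replicate 1). Of the respiratory chain subunits, DESeq2 called 2 (Ndufa4l2 and Ndufv1), and limma-voom, no filter on low counts and the sum of transcripts each called 0. Leaving out any 1 library also left 0 called, and the lone call of Ndufa4l2 was thus made with all 6 libraries only, while its log2 change stayed at 2.76 to 3.51. With the replicate number as a block, 539 genes and 1 subunit were called, and the block changed no call among the subunits. The median log2 change of each complex stayed above 0 in all settings; leaving out each library gave 0.21 to 0.42 for complex I, 0.16 to 0.40 for complex II, 0.13 to 0.37 for complex III, 0.11 to 0.30 for complex IV and 0.02 to 0.25 for complex V. Relative to the median of all genes, complex V was at 0.09, at 0.01 without KO replicate 1 and at 0.00 without WT replicate 3.

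Keeping protein-coding transcripts only, counting Ndufa4 and Ndufa4l2 in complex I and leaving out members with 10% or more shared windows were chosen after the data were seen, and no complex median changed sign under them. Log2 changes near 0 changed sign, and the cause was not tested. Cox7a2l was -0.010 with edgeR, -0.027 with limma-voom, -0.027 with TMM and -0.053 with total reads. Cox7b was -0.0018 with edgeR and -0.021 with total reads. Uqcrh was -0.042 with edgeR, -0.029 with DESeq2, -0.032 with limma-voom, -0.031 with TMM and -0.057 with total reads. Leaving out each library gave -0.80 to 0.47 for Cox6a2, -0.19 to 0.91 for Cox6b2, -0.16 to 0.14 for Cox7a2l, -0.097 to 0.18 for Cox7b, -0.12 to 0.13 for Ndufs1, -0.28 to 0.054 for Ndufs8, -0.13 to 0.20 for Uqcrh, -0.21 to 0.48 for AA467197 and -0.11 to 0.16 for Hif1a. Depth limits what can be said of the low tissue forms Cox4i2 and Cox8b.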
